A study of Equus asinus with 6 samples.

Results

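The regulators of oxidative metabolism described here are 10 genes that were chosen by name: the AMP-activated protein kinase (AMPK) subunit genes PRKAA2 and PRKAG3, the coactivator genes PPARGC1A and PPARGC1B, the nuclear receptor genes PPARA, PPARD, ESRRA and ESRRG, and the mitochondrial factors NRF1 and TFAM. All 10 were found once each by gene name among the 20873 genes of the deposited count table. Guangling donkeys (Equus asinus), all 24 months old, gave the longissimus dorsi muscle that runs along the spine, and 6 libraries of its total RNA were sequenced. In 3 libraries the muscle had a high content of intramuscular fat (IMF, the marbling fat inside the muscle), and in the other 3 a low content. Breed, age, muscle and freezing soon after slaughter were the same for both groups per the labels. Measured IMF contents, sex and diet are not used here. Whether each library stands for its own animal is not stated, and the p-values therefore measure only the spread between these libraries, which may be technical.

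AMPK is a kinase that senses a fall in cellular energy. It is built of a catalytic alpha, a scaffolding beta and a nucleotide-binding gamma subunit, and muscle uses its own isoforms of each. Active AMPK acts in part through the PGC-1 coactivators, which have no DNA-binding domain of their own and work through nuclear receptors such as the PPARs and the estrogen-related receptors (ERRs) and through nuclear respiratory factors. Those factors switch on fatty acid oxidation, the respiratory chain and TFAM, a protein that packs mitochondrial DNA and takes part in its transcription. In skeletal muscle the pathway is known for setting mitochondrial content and the oxidative character of fibres.

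The libraries held 39052998 to 47494157 assigned reads, and the 10 genes had 323 to 10405 reads each in a library, so that the counting error alone was 5.56% at the lowest and 0.98% at the highest count. Transcripts that define skeletal muscle were abundant in every library: the 7 muscle markers (CKM, ACTA1, MYOT, TTN, NEB, DES and MYOD1) together measured 77618 to 112756 CPM (reads of a gene scaled to a normalized library total) in high and 90210 to 127111 in low IMF muscle. Several libraries stood apart. Low IMF replicates 2 and 3 were nearly alike: the chi-square of their counts per degree of freedom was 7.7, above sampling noise but far below the 193 to 560 of the other 5 pairs of a group. High IMF replicate 1 had the lowest level of fast-fibre genes, 21764 CPM summed over the 11 of 13 listed markers found in the table, against 71508 and 120690 in the other high and 71945 to 107432 in the low IMF libraries. Adipocyte genes, of which 7 of 7 listed were found, summed to 339 to 667 CPM in high and 467 to 512 in low IMF muscle. PLIN4 and FABP4 made up most of the sum in every library but high IMF replicate 2, whose sum was the highest. The other 5 (ADIPOQ, PLIN1, CIDEC, LEP and LIPE) were highest in high IMF replicate 2 and lowest in low IMF replicate 1, where LEP was listed at 0. Their log2 folds were 0.99 to 2.87, those of PLIN4 and FABP4 -0.29 and -0.51, and the list's median was 1.17, with 0 of 7 past the adjusted threshold of edgeR. Since these are bulk samples, fewer cells of a type and less RNA per cell cannot be told apart.

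None of the 10 genes changed between high and low IMF muscle past the threshold. The edgeR quasi-likelihood test called 0 of 10 at an adjusted p under 0.05, where it called 0 of all 15933 genes tested (0%). At an unadjusted p under 0.05 it had 0 of the 10, beside 7.27% of all genes (4.53% with a positive and 2.74% with a negative fold of high over low IMF). DESeq2, which called 1.16% of its genes, and limma-voom, which called 0%, also called 0 of the 10. Of the 10 log2 folds, 4 were positive and 6 negative, with a median of -0.07, beside a median of 0.01 and 48.8% negative over all genes. The groups were separate for 1 of the 10 genes, NRF1, which lay lower in high IMF muscle; among all genes 6.10% lay lower and 6.86% higher without overlap, 13.0% in all. In the authors' deposited table the adjusted p of the 10 genes was 0.677 (NRF1) to 0.999 (TFAM). Thus 0 of the 10 lay under 0.05 there, beside 1.15% of that table's tested genes. The table also marked 0 of the 10 as regulated, and the share of all genes so marked is not given here.

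**Figure D1:**
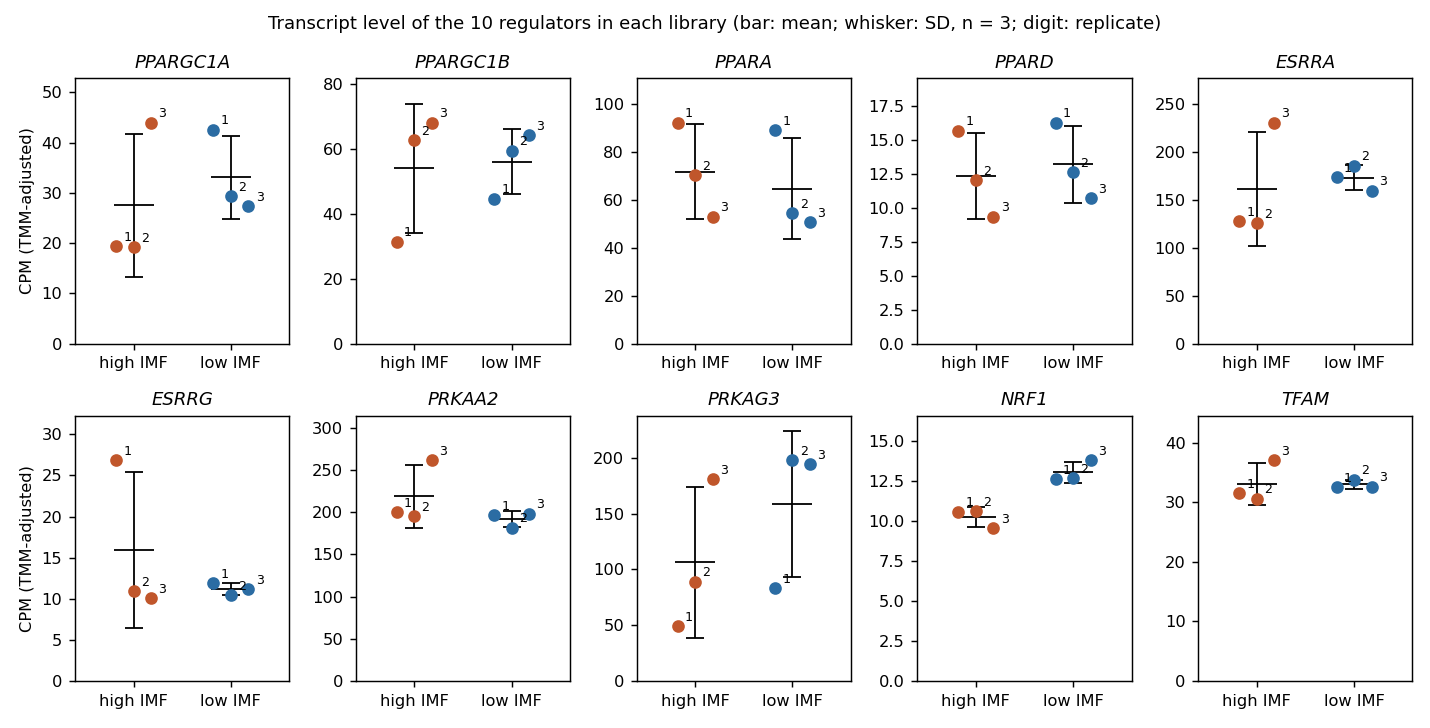
Level of each of the 10 genes in CPM (vertical axes start at 0) in the 3 high IMF libraries (orange) and the 3 low IMF libraries (blue); digits are replicate numbers, the bar is the mean and the whisker the SD. NRF1 is the gene without overlap, while PPARGC1A, PPARGC1B, ESRRA, ESRRG and PRKAG3 spread widely among the high IMF libraries. PRKAG3 also spreads widely among the low IMF libraries.

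Per kilobase of gene, ESRRA was the most abundant of the 10, with a median of 75.3 FPKM (a count scaled to gene length and library size, as deposited) over the 6 libraries and a range of 67.4 to 96.8. PRKAG3 came next with a median of 24.6 FPKM (10.8 to 34.2), followed by PRKAA2 with 13.8 FPKM (10.7 to 15.1). The ranges of these 2 AMPK genes overlapped. PPARA (6.92 FPKM), TFAM (6.87), PPARGC1B (5.31), PPARD (4.24), PPARGC1A (4.04), NRF1 (3.69) and ESRRG (2.1) formed a lower group of medians in which each range overlapped that of its neighbour in the order. ESRRA, which encodes the receptor ERRalpha that PGC-1 coactivators bind without an added ligand, was thus above every other gene of the set in each library.

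PRKAA2 encodes the catalytic alpha2 subunit, the main AMPK kinase of muscle fibres. It measured 200.2, 195 and 262 CPM in high IMF replicates 1 to 3 and 197, 182 and 199 CPM in the low IMF libraries, in the same order. High IMF replicate 3 stood above the other 5 libraries, which lay close together, and the groups overlapped. The log2 fold was 0.19 (SE 0.18, 95% interval -0.24 to 0.62, edgeR adjusted p = 0.911), and it was 0.04 without high IMF replicate 3. Scaled to total reads with no further normalization, the same counts gave 232, 219 and 232 CPM in high and 203, 164 and 184 CPM in low IMF muscle, without overlap. On that scale 10.5% of all genes lay higher in high IMF muscle without overlap.

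PRKAG3 encodes gamma3, the nucleotide-sensing subunit that is largely restricted to fast glycolytic fibres. It varied most of the 10 genes, by 4.03-fold from the lowest to the highest library. It measured 49.2, 89.2 and 181 CPM in high and 82.9, 198 and 195 CPM in low IMF muscle. High IMF replicate 1, high IMF replicate 2 and low IMF replicate 1 were low and the other 3 libraries high, so that the groups overlapped. The log2 fold of -0.57 (SE 0.52, interval -1.79 to 0.64, edgeR adjusted p = 0.901) was -0.25 when high IMF replicate 1 was left out. Leaving out high IMF replicate 3 made it -1.2 with an unadjusted p of 0.0427 (adjusted p = 0.383).

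The other AMPK subunits placed PRKAG3 in its family. PRKAB2, the beta2 scaffold of muscle, measured 225, 621 and 829 CPM in high and 247, 837 and 812 CPM in low IMF muscle. It was low in replicate 1 of both groups, as PRKAG3 was, but unlike PRKAG3 its high IMF replicate 2 lay nearer to the high libraries. PRKAG1, the widespread gamma1 subunit, measured 42.7, 39.2 and 37.5 CPM in high and 68.0, 28.9 and 28.6 CPM in low IMF muscle, with its highest level in low IMF replicate 1. As a share of the summed FPKM of the 3 gamma genes, PRKAG3 held 31.4%, 47.9% and 67.9% in high and 34.5%, 72.9% and 72.5% in low IMF muscle. The gamma isoform with the largest share therefore differed between libraries of the same group: PRKAG1 led in high IMF replicate 1 (53.6%) and low IMF replicate 1 (55.7%), and PRKAG3 in the other 4 libraries. Among the alpha genes PRKAA2 held 77.3% to 87.9% in the 6 libraries, and among the beta genes PRKAB2 held 88.4% to 96.6%. Of the 7 subunit genes, which include PRKAA2 and PRKAG3, 0 passed, 0 had an unadjusted p under 0.05, and 2 of 7 folds were positive (median -0.07).

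**Figure D2:**
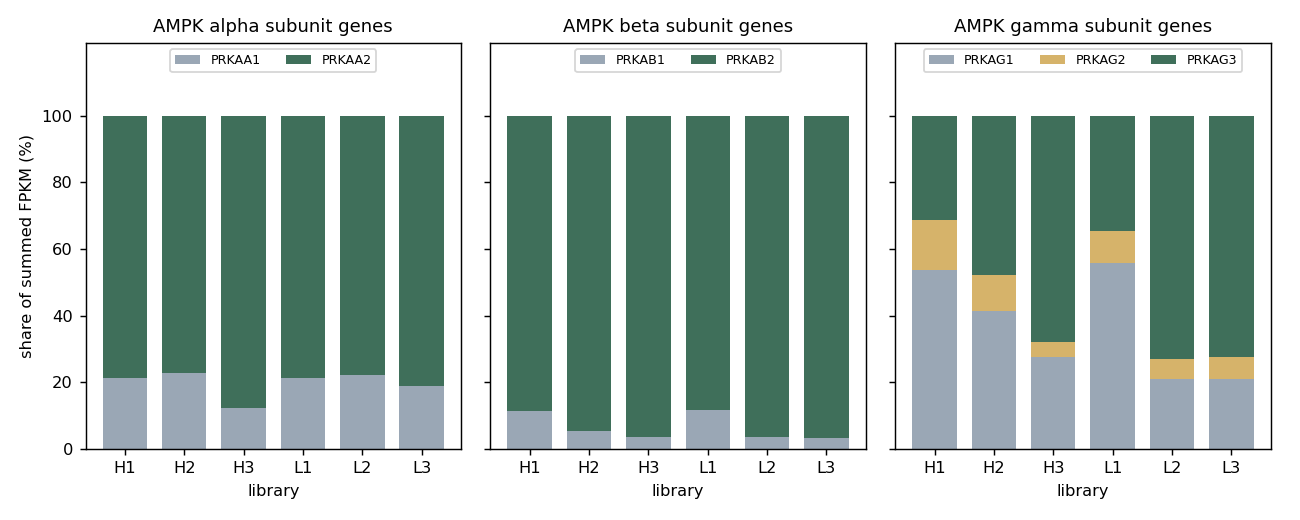
Share of the summed FPKM (percent, vertical axis) that each isoform gene held among the AMPK alpha, beta and gamma subunit genes in high IMF libraries H1 to H3 and low IMF libraries L1 to L3. PRKAA2 and PRKAB2 led in all 6 libraries, while PRKAG3 ranged from 31.4% in H1 to 72.9% in L2.

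The fast-fibre markers were, like PRKAG3 and PRKAB2, lowest in high IMF replicate 1. The median level of the 11 fast-fibre genes, as log2 CPM minus each gene's mean over the libraries, was -1.88, 0.09 and 0.79 in high and -0.01, 0.55 and 0.44 in low IMF muscle, and PVALB was listed at 0 in high IMF replicate 1 and low IMF replicate 1. Slow-fibre genes, of which 9 of 10 listed were found and none was at 0, had levels of 0.62, -0.43 and -0.39 in high and 0.45, -0.2 and -0.18 in low IMF muscle. Their summed level was 22827 to 51354 CPM in high and 28801 to 43801 CPM in low IMF muscle. The myosin genes MYH7, MYH1 and MYH4 were not matched by name and enter neither list. The part of fibre makeup in the AMPK values was not tested.

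PPARGC1A encodes PGC-1alpha, the coactivator that exercise, cold and fasting induce and that drives mitochondrial biogenesis. Its libraries measured 19.4, 19.2 and 44.0 CPM in high IMF replicates 1 to 3 and 42.6, 29.3 and 27.4 CPM in the low IMF libraries. High IMF replicates 1 and 2 were the lowest of all and high IMF replicate 3 the highest, so that the low IMF libraries fell between them. The group levels of 27.5 ± 14.3 and 33.1 ± 8.26 CPM (SD, n = 3) gave a log2 fold of -0.27 (SE 0.36, interval -1.12 to 0.58, edgeR adjusted p = 0.937). High IMF replicate 3 weighed on this value: without it the log2 fold was -0.78 with an unadjusted p of 0.0148 and an adjusted p of 0.284, and without low IMF replicate 1 it was -0.06. In the fit without high IMF replicate 3, more of all genes had an unadjusted p under 0.05 than with all libraries.

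The paralogue PPARGC1B, which encodes PGC-1beta and is less responsive to exercise, had another order of libraries. Its levels were 31.4, 62.6 and 68.0 CPM in high and 44.7, 59.4 and 64.1 CPM in low IMF muscle. Replicate 1 of either group was lowest and the groups overlapped. The log2 fold was -0.05 (SE 0.30, interval -0.77 to 0.66, edgeR adjusted p = 0.985). With library size only it turned to 0.06, where the median of all genes was 0.15. In FPKM, PPARGC1A held 50.7%, 33.7% and 51.8% of the sum of both genes in high and 61.3%, 45.0% and 41.5% in low IMF muscle, so that neither paralogue led in all libraries of a group.

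Over the 6 libraries the genes nearest to PPARGC1A in pattern, among 8145 named genes with a mean of at least 10 CPM, were PERM1, NDUFS7 and FAHD1. Likeness was the root mean square distance between centred log2 CPM values, which was 0.10 for PERM1, 0.12 for NDUFS7 and 0.13 for FAHD1. PERM1, a muscle protein that PGC-1 and ERR induce, measured 364, 352 and 664 CPM in high and 697, 495 and 458 CPM in low IMF muscle. NDUFS7, a subunit of respiratory complex I, measured 251, 218 and 463 CPM in high and 530.2, 394 and 354 CPM in low IMF muscle. Within the set, ESRRA was nearest to PPARGC1A (0.24) and ESRRG farthest (0.85). These distances are a description over 6 libraries, which differ in markers of fibre types, fibroblasts and adipocytes.

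ESRRA measured 128, 126 and 231 CPM in high and 174, 186 and 159.5 CPM in low IMF muscle. As for PPARGC1A, high IMF replicates 1 and 2 were the lowest and high IMF replicate 3 the highest of the 6 libraries. The log2 fold was -0.10 (SE 0.27, interval -0.73 to 0.53, edgeR adjusted p = 0.970), and without high IMF replicate 3 it was -0.45 with an unadjusted p of 0.0215 and an adjusted p of 0.309. Leaving out either low library, high IMF replicate 1 or 2, turned it to 0.02 or 0.03. The fit without high IMF replicate 3 is again the one in which more of all genes had an unadjusted p under 0.05.

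ESRRG encodes ERRgamma, the family member of heart and slow oxidative fibres. It measured 26.9 CPM in high IMF replicate 1 and 10.1 to 11.9 CPM in the other 5 libraries. The log2 fold of 0.52 (SE 0.38, interval -0.38 to 1.41, edgeR adjusted p = 0.868) thus rested on a single library, and without high IMF replicate 1 it was -0.10. ESRRB, the remaining ERR gene, was likewise highest in that library, with 20.1, 3.28 and 3.74 CPM in high and 8.25, 3.47 and 2.87 CPM in low IMF muscle. In FPKM, ESRRA held 82.3% of the 3 ERR genes in high IMF replicate 1 and 93.7% to 97.0% in the other libraries. High IMF replicate 1 also had the highest slow-fibre level of the 6 libraries (0.62). Low IMF replicate 1 came next (0.45), with ESRRG at 11.9 CPM. The part of fibre makeup in the ESRRG value was not tested.

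**Figure D3:**
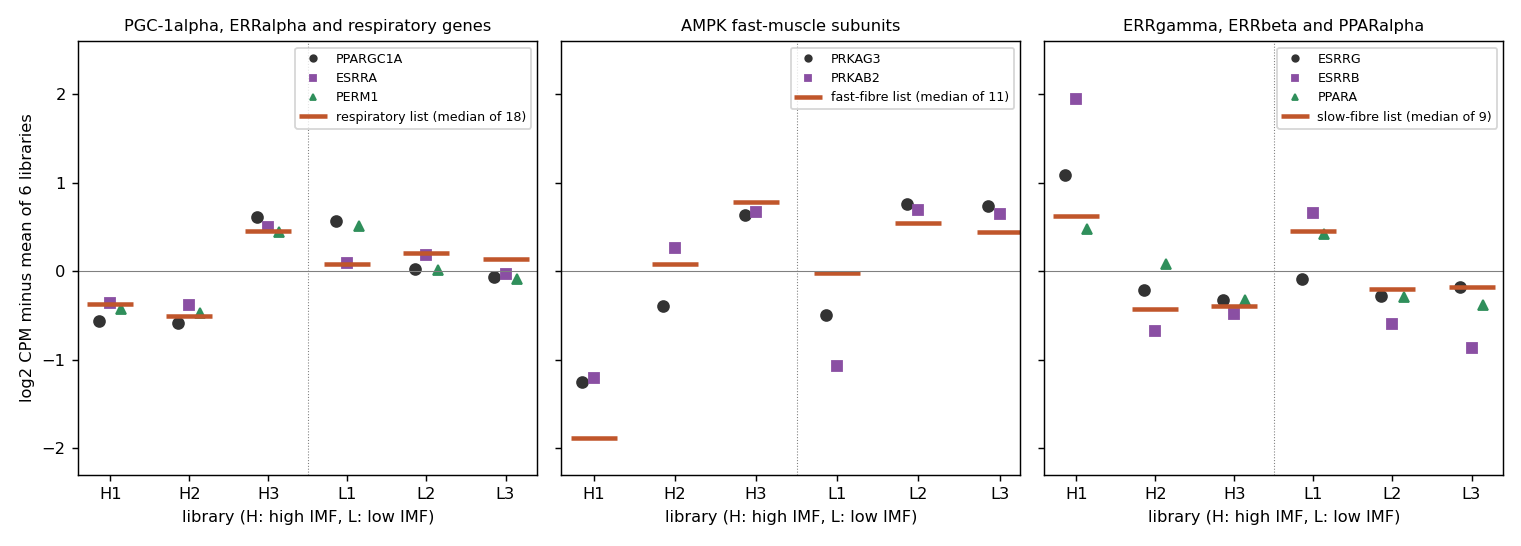
Centred log2 CPM (vertical axis, zero is the mean of the 6 libraries) in high IMF libraries H1 to H3 and low IMF libraries L1 to L3, with orange bars for the median level of a gene list. PPARGC1A, ESRRA, PERM1 and the respiratory list are low in H1 and H2 and high in H3, but in L1 PPARGC1A and PERM1 lie above the list, PRKAG3 and PRKAB2 are lowest in H1 and low in L1 (L1 lies at the middle of the fast-fibre list), and ESRRG and ESRRB peak in H1.

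PPARA, the fatty-acid-activated receptor that switches on fatty acid oxidation, measured 92.3, 70.2 and 53.0 CPM in high and 89.0, 54.4 and 50.8 CPM in low IMF muscle. Replicate 1 of both groups was highest, and the spread within each group exceeded the difference between them. The log2 fold was 0.15 (SE 0.29, interval -0.53 to 0.83, edgeR adjusted p = 0.956), it turned to -0.08 without high IMF replicate 1, and it was 0.44 without low IMF replicate 1. PPARD, the broadly expressed receptor that responds to fatty acids in muscle, measured 15.7, 12.0 and 9.36 CPM in high and 16.3, 12.6 and 10.7 CPM in low IMF muscle. The groups spanned nearly the same range, and the log2 fold was -0.09 (SE 0.26, interval -0.70 to 0.51, edgeR adjusted p = 0.970). In FPKM, PPARA held 45.4% to 56.2% of the 3 PPAR genes, PPARD 24.5% to 33.1%, and the adipogenic receptor gene PPARG 13.6% to 30.2%. The highest share of PPARG was in high IMF replicate 2, the library with the highest sum of adipocyte markers. The lowest share was in high IMF replicate 1. It was 16.4% in high IMF replicate 3, which had the lowest sum of these markers. In low IMF replicate 1, the lowest library for 5 of the 7 markers, the share was 16.2%. The part of adipocytes in the PPARG values was not tested.

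NRF1 encodes nuclear respiratory factor 1, which activates genes of the respiratory chain and of mitochondrial import. It measured 10.6, 10.6 and 9.56 CPM in high and 12.6, 12.7 and 13.8 CPM in low IMF muscle. All 3 high IMF libraries lay below all 3 low IMF libraries, with 10.3 ± 0.608 against 13.1 ± 0.675 CPM (SD, n = 3). The log2 fold was -0.35 (SE 0.16, interval -0.73 to 0.04), which is 1.27-fold higher in low IMF muscle, with an unadjusted p of 0.0692 and an edgeR adjusted p of 0.734. It was -0.39 to -0.30 with any 1 library left out. The separation depended on the scaling: on total reads the libraries measured 12.3, 11.9 and 8.45 CPM in high and 13.1, 11.5 and 12.8 CPM in low IMF muscle, which overlap, and the log2 fold was -0.20.

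TFAM varied least, by 1.21-fold over the 6 libraries. It measured 31.5, 30.6 and 37.1 CPM in high and 32.6, 33.8 and 32.7 CPM in low IMF muscle. The low IMF libraries lay inside the range of the high IMF libraries. The log2 fold was 0.00 (SE 0.14, interval -0.34 to 0.34, edgeR adjusted p = 0.999), so that the interval of the fold ran from 0.792 to 1.27. The SD of log2 CPM within groups was 0.11 for TFAM and 0.08 for NRF1, beside 0.84 for PRKAG3, 0.56 for ESRRG and 0.54 for PPARGC1A. Over the 8507 genes with a mean of at least 10 CPM the median of this SD was 0.26.

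**Figure D4:**
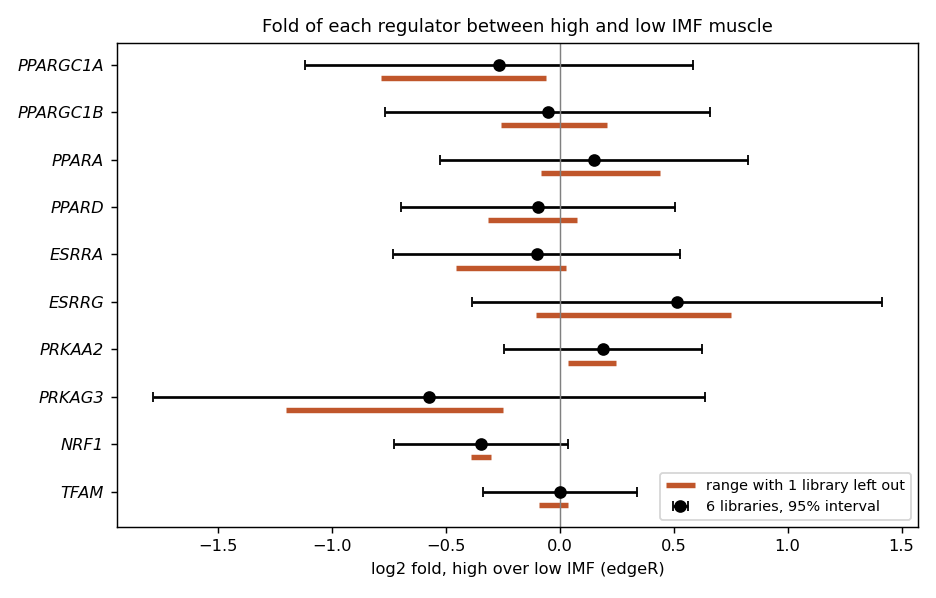
Log2 fold of high over low IMF for each of the 10 genes (points, edgeR) with its 95% interval (black whiskers) and, in orange, the range of the fold when any 1 of the 6 libraries is left out. All 10 intervals include 0, and PRKAG3, PPARGC1A and ESRRG move most when a library is left out.

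The rest of the pathway was read from 11 gene lists, which hold 124 tested genes apart from the 10. None of the 124 passed in edgeR. At an unadjusted p under 0.05 there were 5 higher genes and 3 lower ones, 6.45% of the 124 beside 7.27% of all genes, and 14.5% of the 124 had separate groups beside 13.0% of all genes. DESeq2 called 1 of them, CD36.

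Upstream of AMPK, 0 of 11 genes had an unadjusted p under 0.05 (6 folds positive, median 0.11). The member of smallest p was FLCN, folliculin, a protein that restrains AMPK and PGC-1alpha signalling, with 94.4 ± 15.9 CPM in high and 124 ± 14.1 CPM in low IMF muscle (edgeR adjusted p = 0.740). CAB39L, part of the LKB1 kinase complex that activates AMPK, lay the other way with 4.97 ± 0.61 and 3.88 ± 0.303 CPM (adjusted p = 0.841). Of 12 substrates of AMPK, 3 positive folds and 0 negative ones had an unadjusted p under 0.05 (median 0.02). That is 25.0% of this short list beside 7.27% of all genes. Among the 3 were both acetyl-CoA carboxylase genes, named after their values were seen. ACACB, whose product makes the malonyl-CoA that restrains mitochondrial fatty acid uptake, measured 87.0, 67.6 and 98.1 CPM in high and 50.4, 65.6 and 60.4 CPM in low IMF muscle. ACACA, the enzyme of fatty acid synthesis, measured 37.1, 41.6 and 19.3 CPM in high and 19.5, 21.5 and 19.1 CPM in low IMF muscle, and its high IMF replicate 3 fell inside the low IMF range. The median level of adipocyte markers, on the centred log2 scale above, was 0.37, 2.78 and -0.95 in high and -2.43, 0.26 and 0.08 in low IMF muscle, and its part in the ACACA values was not tested. The edgeR adjusted p was 0.635 for ACACB and 0.646 for ACACA. CRTC2, a CREB coactivator, had the smallest p among the lower substrates, with 26.4 ± 4.19 and 32.6 ± 1.17 CPM (adjusted p = 0.776).

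Among 12 partners and modifiers of the PGC-1 coactivators, 9 folds were positive (median 0.09) and 0 had an unadjusted p under 0.05. SIRT1, a deacetylase that activates PGC-1alpha, measured 4.53, 5.12 and 4.46 CPM in high and 2.86, 3.95 and 3.26 CPM in low IMF muscle, without overlap (edgeR adjusted p = 0.750). PERM1, the lower member of smallest p, had a log2 fold of -0.26 (adjusted p = 0.934). Of 7 nuclear receptor partners, THRB, the thyroid hormone receptor beta, was higher at an unadjusted p of 0.0481 (35.3 ± 6.4 and 24.6 ± 5.69 CPM, adjusted p = 0.681). RXRB, a retinoid X receptor with which PPARs pair, was lower without overlap (40.4 ± 8.66 and 52.8 ± 1.34 CPM, adjusted p = 0.746). Of 14 tested genes known to act on PPARGC1A transcription, 7 folds were positive and 7 negative (median -0.01), and 0 had an unadjusted p under 0.05. CAMK2A, a calcium-dependent kinase, measured 174 ± 33.0 and 131 ± 16.4 CPM (adjusted p = 0.752), and PPP3CB, a calcineurin subunit, 177 ± 67.3 and 225 ± 16.0 CPM (adjusted p = 0.884).

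Among 5 tested genes of factors that act beside NRF1 (GABP subunits, YY1 and SP1), 3 folds were positive and none was at an unadjusted p under 0.05 (median 0.04). GABPB1, a subunit of the GABP factor that shares many target genes with NRF1, measured 10.96, 10.8 and 10.9 CPM in high and 13.7, 13.0 and 12.6 CPM in low IMF muscle, without overlap (log2 fold -0.26, SE 0.16, edgeR adjusted p = 0.820). Its DNA-binding partner GABPA lay the other way with 34.9 ± 7.88 and 30.9 ± 0.603 CPM (adjusted p = 0.919). Beside TFAM, 13 genes that copy, transcribe or maintain mitochondrial DNA were tested, and 10 had a negative fold (median -0.17). MTERF2, a mitochondrial transcription termination factor family member, measured 26.9, 10.2 and 19.6 CPM in high and 36.3, 32.2 and 34.9 CPM in low IMF muscle, without overlap. Its log2 fold of -0.87 (SE 0.33) had an unadjusted p of 0.0317 and an adjusted p of 0.639. MTERF3, of the same family, measured 12.4 ± 1.73 and 11.02 ± 1.33 CPM (adjusted p = 0.925).

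**Figure D5:**
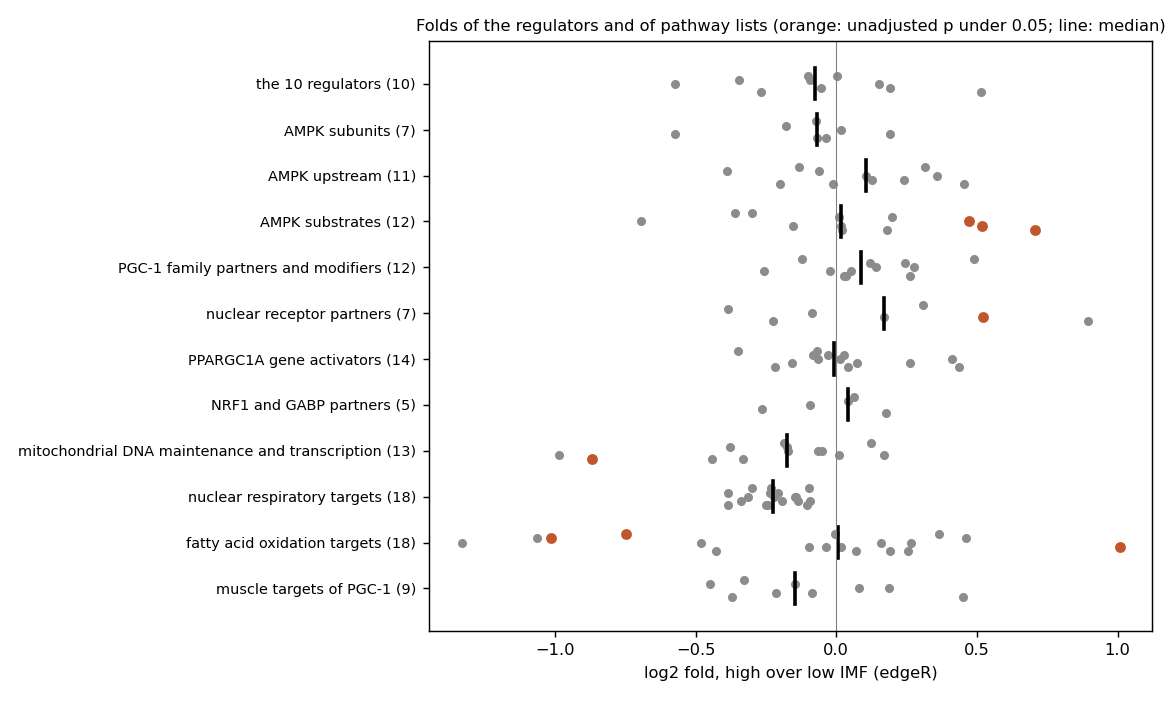
Log2 fold of high over low IMF (horizontal axis, edgeR) of every tested gene in the set of 10 and in 11 pathway lists, with the number of genes in brackets; black lines are medians and orange points have an unadjusted p under 0.05. The 18 respiratory genes all lie left of 0 (median -0.23), and the fatty acid oxidation genes spread widest (-1.33 to 1.01).

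At the far end of the pathway, the 18 tested nuclear genes of the respiratory chain and citrate cycle that NRF1, ERRalpha and PGC-1 are known to drive all had a negative fold (median -0.23), and none had an unadjusted p under 0.05. COX5B, a subunit of cytochrome oxidase, had the smallest p, with 489 ± 135 CPM in high and 639 ± 42.3 CPM in low IMF muscle (edgeR adjusted p = 0.841). Like PPARGC1A and ESRRA, these genes were low in high IMF replicates 1 and 2 and high in replicate 3: 17 of 18 were highest in high IMF replicate 3, where 22.3% of all genes were highest, and 15 were lowest in high IMF replicate 2. Their summed level was 8760, 7906 and 15059 CPM in high and 11841, 12785 and 12242 CPM in low IMF muscle, so that the low IMF libraries lay inside the range of the high IMF libraries. Within the low IMF group their order was not that of PPARGC1A, which was highest in replicate 1, where the respiratory sum was lowest. Their median log2 fold was -0.61 with high IMF replicate 3 left out, and -0.11 and -0.08 when replicate 1 or 2 of that group was left out instead. That library also had the lowest summed level of the 8 fibroblast markers, with 1552, 1242 and 260 CPM in high and 309, 665 and 737 CPM in low IMF muscle, and was the lowest for all 9 endothelial markers. Genes of neither list were at 0 in any library, and the part of these cells in the respiratory values was not tested.

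Of 18 fatty acid oxidation genes, targets of PPARalpha, PPARdelta and ERRalpha, 9 folds were positive and 9 negative (median 0.01). An unadjusted p under 0.05 was reached by 1 positive and 2 negative folds, 16.7% of the list beside 7.27% of all genes. UCP2, a mitochondrial carrier of the uncoupling protein family, measured 20.04, 15.6 and 13.4 CPM in high and 6.003, 9.34 and 9.07 CPM in low IMF muscle without overlap (log2 fold 1.01, SE 0.25, unadjusted p = 0.00475, edgeR adjusted p = 0.510). CD36, the fatty acid transporter, was lower without overlap (log2 fold -0.75, SE 0.19, unadjusted p = 0.00517, edgeR adjusted p = 0.510, DESeq2 adjusted p = 0.0417). Both genes are also made by cells other than muscle fibres. The 8 macrophage markers summed to 215, 82.5 and 30.2 CPM in high and 46.1, 42.3 and 45.0 CPM in low IMF muscle, and the 8 lymphocyte markers to 30.0, 19.0 and 16.4 CPM and 18.1, 6.38 and 5.76 CPM. The 9 endothelial markers summed to 921, 777 and 493 CPM in high and 1085, 953 and 963 CPM in low IMF muscle, and none of these markers was at 0 in any library. The part of such cells in UCP2 and CD36 was not tested. The second lower gene, ACADL, an acyl-CoA dehydrogenase, was named after its values were seen and measured 4.19 ± 1.61 and 8.48 ± 3.91 CPM (edgeR adjusted p = 0.675). Among 9 further muscle targets of PGC-1, 6 folds were negative (median -0.15) and none had an unadjusted p under 0.05. Myoglobin (MB), the oxygen store of oxidative fibres, measured 19601, 10409 and 22443 CPM in high and 11849, 13754 and 12815 CPM in low IMF muscle (edgeR adjusted p = 0.901), and the angiogenic factor VEGFA 271 ± 101 and 340.0 ± 15.6 CPM (adjusted p = 0.897).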

How the data were processed

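RNA of longissimus dorsi muscle was sequenced in 6 libraries, 3 of high and 3 of low IMF content, grouped by their titles. Each gene has a deposited count of reads, made by the authors and not normalized. The submitters' processing notes name HISAT2 and the build mm9, a mouse build, so the genome behind the counts is uncertain and no coordinates are given. Counter and strand setting: not given in the sources used here. FPKM values, the ratio of high over low IMF (fold), its log2 value and the p-values are the authors' own as deposited; FPKM served only for levels between genes. The per-sample counts equalled the series' table (0 cells differed).

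Counts were tested with edgeR 4.0.16 (R 4.3.3; TMM normalization, filterByExpr, quasi-likelihood F-test, Benjamini-Hochberg over 15933 genes holding 99.96% of reads, threshold 0.05); intervals are 95% and use the test's moderated error. The fit was tested on simulated data. CPM use TMM-adjusted totals; log2 CPM add a prior count of 2. Alternatives were DESeq2 1.42.0, limma-voom (limma 3.58.1), other scalings and filters, a replicate block and leaving out libraries. All 10 genes are described; from each list the gene of smallest p in each direction is named, except 1 that is not reported here. Genes and lists were chosen with earlier results of these data known. Of the listed pathway genes, TWNK, ATP5F1A, ATP5F1B, KYAT1 and KYAT3 were not matched by name, the ATP synthase pair being listed as ATP5A1 and ATP5B, and CAMK4 did not pass the filter. LOC numbers were given symbols by gene identifier from RefSeq's gene list for the donkey, used for names only. A count of 0 allows up to 3 reads, 0.0632 to 0.0768 CPM of total reads, for counting error only.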

Additional observations from a re-analysis of the deposited data

How the results depend on the processing

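The adjusted threshold was passed by 0 of the 10 genes under every alternative run. The number of all genes called, 0 in edgeR, was 194 in the DESeq2 Wald test and 0 to 3 with any 1 library left out (3 without high IMF replicate 1). At an unadjusted p under 0.05, 721 genes were higher and 437 lower; leaving out high IMF replicate 3 gave 1155 and 890, leaving out low IMF replicate 2 gave 438 and 272, leaving out low IMF replicate 3 gave 464 and 291, and summing both gave 428 and 272. With library size only, 1018 were higher and 182 lower. The median log2 fold of the 10 genes was -0.07 and ranged from -0.18 to -0.03 with any 1 library left out; with library size only it was 0.06, below the median of all genes on that scale (0.15). In the 8 alternatives that keep all libraries or sum low IMF replicates 2 and 3, 72 of 80 folds of the 10 genes kept their sign; with 1 library left out, 48 of 60 did. Under library size only PPARGC1B was 0.065 and PPARD 0.065, both below the median of all genes on that scale (0.15, against 0.01 as normalized). With low IMF replicates 2 and 3 summed, PPARGC1B was 0.0167. The fold of TFAM, near 0, was -0.0061 with DESeq2 size factors, -0.00804 without the low-count filter, -0.00818 in the DESeq2 Wald test, -0.00466 in limma-voom and -0.00266 with the replicate block. With 1 library left out the log2 fold ran from -0.26 to 0.21 for PPARGC1B, -0.0834 to 0.44 for PPARA, -0.32 to 0.075 for PPARD, -0.45 to 0.0288 for ESRRA, -0.10 to 0.75 for ESRRG and -0.0934 to 0.037 for TFAM. The cause was not tested. Without high IMF replicate 3, 3 of the 10 genes (PPARGC1A, ESRRA and PRKAG3) had an unadjusted p under 0.05. In that fit 1155 of all genes were higher and 890 lower at such a p, beside 721 and 437 with all libraries. Whether groups were separate on total reads was examined after seeing the data: 1 of the 10 genes was separate, PRKAA2 in place of NRF1. On that scale 13.1% of all genes were separate in either direction.

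Replicate numbers are shared by the groups. The correlation across genes of same-numbered deviations was 0.20, 0.15 and 0.02, beside -0.22 to 0.21 for libraries of unlike number. The numbers were not taken as pairs, though these values do not settle whether they are. With the replicate block edgeR called 0 of all genes and 0 of the 10. In that fit 1 of the 10, PRKAG3, had an unadjusted p under 0.05 (log2 fold -0.67, adjusted p = 0.631). At such a p 700 of all genes were higher and 487 lower, beside 721 and 437 without the block.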

Other observations

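Genes known to respond to fasting and to fatty acids through PPARs differed between libraries of the same group; they were chosen after their values were seen, and none passed between the groups in edgeR. UCP3, the muscle uncoupling protein, measured 24.0, 81.6 and 146 CPM in high and 4.002, 309 and 319.6 CPM in low IMF muscle. ANGPTL4, an inhibitor of lipoprotein lipase, measured 14.2, 8.82 and 12.9 CPM in high and 2.48, 40.0 and 32.4 CPM in low IMF muscle. MLYCD, which breaks down malonyl-CoA, measured 74.8, 60.7 and 125 CPM in high and 25.0, 165 and 159.7 CPM in low IMF muscle. For these 3 genes low IMF replicate 1 was the lowest and low IMF replicates 2 and 3 the highest of the 6 libraries. PDK4, which turns muscle from glucose to fatty acid use, had another order, with 171, 6.02 and 3.85 CPM in high and 10.4, 77.2 and 71.2 CPM in low IMF muscle. Unlike UCP3, ANGPTL4 and MLYCD, PPARA was high in low IMF replicate 1 (89.0 CPM), and PPARD was highest there (16.3 CPM). Of the 18 fatty acid oxidation genes tested, which include these picked ones, 9 were lowest in that library. Another 4 were highest there, among them ACADM (460 CPM) and CD36 (277 CPM). The part of the receptors in these levels was not tested.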
